A study of Mus musculus with 62 samples.

Results

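The mitochondrial carrier family, named Slc25 after its solute carrier number, is the set of membrane proteins that move nucleotides, phosphate, organic acids, amino acids, cofactors and fatty acid derivatives between the cytosol and the mitochondrial matrix. Members were taken as every gene whose symbol is Slc25a followed by a number, which gave 47 of the 47643 symbols in the expression table. Of these, 39 reached at least 1 TPM in at least 5 libraries and were tested. TPM is a transcript abundance scaled for transcript length and for the total of the library. The series measured RNA of brown adipose tissue from female mice, labelled as 2 months old in every group. The same age is given at all weeks after injection, so comparisons between weeks may also be comparisons between ages. Groups were CAC, injected with melanoma cells described as cachectic, NCAC, injected with melanoma cells described as non-cachectic, and Con, mock injected, each 2, 4, 6 and 8 weeks after injection. Each of the 12 groups held 5 libraries, except CAC at 8 weeks with 7, which makes 62 in all. The sample labels name C57BL6/J mice and the series text names NCI Ath/nude mice, which lack a functional thymus, so the strain cannot be told from these sources. No transgene or treatment beyond the injections is given, and the labels do not name the melanoma lines.

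Brown adipose tissue burns fatty acids and glucose to make heat, and its dense mitochondria let protons leak back through uncoupling protein 1, itself a distant relative in the same protein family. Fuel, nucleotides and cofactors reach the matrix through the carriers of the inner membrane: the acylcarnitine carrier brings in fatty acids, the adenine nucleotide carriers exchange ADP for ATP, and the citrate carrier exports citrate for fatty acid synthesis. Cachexia is the wasting of body tissue that some tumours bring about.

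At 8 weeks 2 members changed in CAC against both other arms with and without a rescaling of the libraries: Slc25a30, which is related to the uncoupling proteins, was higher, and Slc25a42, the mitochondrial coenzyme A carrier, was lower. At 6 weeks Slc25a5, an adenine nucleotide carrier, and Slc25a28, an iron carrier, were higher in the same sense. Slc25a33, a pyrimidine nucleotide carrier, was lower in that sense. Slc25a28 and Slc25a33 were named after their values were seen, and some of their calls were lost when single libraries were left out. The least stable was the call of Slc25a33 against Con on the TPM scale. Because the results turn on these 5 genes, the 250 bases before their annotated start are shown here, from RefSeq on GRCm38.p6, 5′ to 3′ on the strand of the gene. Capitals mark the letters CCAAT (or ATTGG, its other strand) and CACGTG.

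Slc25a30 (chr14:75787038-75787287, minus strand): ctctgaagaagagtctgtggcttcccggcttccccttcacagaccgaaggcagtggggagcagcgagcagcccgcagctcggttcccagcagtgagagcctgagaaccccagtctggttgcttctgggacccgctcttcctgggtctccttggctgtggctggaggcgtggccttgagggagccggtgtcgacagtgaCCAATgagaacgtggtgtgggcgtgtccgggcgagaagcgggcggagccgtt

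Slc25a42 (chr8:70212282-70212531, minus strand): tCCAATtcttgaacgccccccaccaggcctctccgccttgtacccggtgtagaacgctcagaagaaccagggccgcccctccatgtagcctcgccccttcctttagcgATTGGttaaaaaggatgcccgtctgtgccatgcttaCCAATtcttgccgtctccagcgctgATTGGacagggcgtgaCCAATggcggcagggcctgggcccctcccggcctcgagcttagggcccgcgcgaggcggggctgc

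Slc25a5 (chrX:36795347-36795596, plus strand): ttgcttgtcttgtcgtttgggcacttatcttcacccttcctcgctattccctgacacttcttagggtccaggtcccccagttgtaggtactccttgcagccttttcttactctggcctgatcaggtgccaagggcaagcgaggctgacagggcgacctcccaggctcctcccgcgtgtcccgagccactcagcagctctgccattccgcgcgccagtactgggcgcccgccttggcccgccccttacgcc

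Slc25a28 (chr19:43674882-43675131, minus strand): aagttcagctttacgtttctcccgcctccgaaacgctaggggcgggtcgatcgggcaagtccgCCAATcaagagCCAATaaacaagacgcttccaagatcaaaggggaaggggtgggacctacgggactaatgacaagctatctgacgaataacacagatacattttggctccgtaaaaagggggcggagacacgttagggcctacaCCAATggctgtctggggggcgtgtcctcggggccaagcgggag

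Slc25a33 (chr4:149774268-149774517, minus strand): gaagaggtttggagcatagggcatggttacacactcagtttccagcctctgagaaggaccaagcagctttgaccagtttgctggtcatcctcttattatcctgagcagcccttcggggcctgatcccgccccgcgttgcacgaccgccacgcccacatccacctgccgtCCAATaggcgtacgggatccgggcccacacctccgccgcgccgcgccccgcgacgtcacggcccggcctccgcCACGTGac

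A promoter was found for 36 of the 47 members. CCAAT, read on both strands, was present in 16 of these (44.4%) and in 34.5% of all 27025 promoters of the same length. The window of Slc25a42 held 5 matches, that of Slc25a28 held 3, those of Slc25a30 and Slc25a33 held 1 each, and that of Slc25a5 held none. The Slc25a5 window ended at chrX:36795596, before the gene start at 36795651, and the bases between were not searched. No annotated transcript of Slc25a5 held the bases after its RefSeq start, while for each of the other 4 genes one did. Such a match does not place both starts at the same base. The windows of Slc25a42 and Slc25a33 ran into the gene bodies given below, which begin at 70212305 and 149774277 on the minus strand. CACGTG was present in 6 of the 36 (16.7%) and in 6.05% of all. Slc25a33 carried it, in the part of its window that lies within the gene body. The other motifs searched on both strands were AAGGTCA (1 of 36, 2.78%, against 4.05% of all), GTAAACA (0 of 36 against 3.09%), TTCNNNGAA (2 of 36, 5.56%, against 7.18%) and that of nuclear respiratory factor 1 (2 of 36, 5.56%, against 3.86%), and none of the 5 windows shown held one of these. These are letter matches and not measured binding. On mm10 the gene bodies are Slc25a30 at chr14:75760117-75787037, Slc25a42 at chr8:70184340-70212305, Slc25a5 at chrX:36795651-36798807, Slc25a28 at chr19:43663801-43674881 and Slc25a33 at chr4:149744036-149774277. Slc25a33 overlaps a predicted gene on the other strand, and the other 4 overlap no annotated gene.

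Expression values were compared as log2(TPM + 1), which understates changes of members with low values, with limma over all 12581 genes that passed the filter. P-values were adjusted by the Benjamini-Hochberg method over the genes of each comparison, genes under 0.05 were called, and every adjusted p below is of this kind. Transcripts of the mitochondrial genome took 39.6% to 66.1% of the TPM of a library, on average 50.8% in CAC, 59.8% in NCAC and 62.8% in Con at 8 weeks. TPM has a fixed total, and the median log2 difference over all genes between CAC and Con was 0.09, -0.08, 0.18 and 0.28 at 2, 4, 6 and 8 weeks, and 0.21 between CAC and NCAC at 8 weeks. Differences are those between the group means of log2(TPM + 1), first group minus second. Each comparison is given on the TPM scale and on a rescaled one, in which libraries were divided by median-of-ratios size factors, which brought the median at 8 weeks to -0.01 in both comparisons. The 7 brown adipocyte markers were all tested. Their summed TPM at 8 weeks was 6930.4 to 10523 in CAC, 9112 to 11634 in Con and 9114 to 15725 in NCAC. The sum of the general adipocyte markers Adipoq, Plin1, Fabp4, Pparg and Lipe was instead higher on average in CAC. That sum was 14760 to 25798 TPM in CAC, 11490 to 15118 in Con and 12323 to 18331 in NCAC at 8 weeks. Con libraries 3 and 4 at 4 weeks stood apart from all others with mitochondrially encoded shares of 39.6% and 39.7%. In CAC at 8 weeks, library 3 had the lowest summed macrophage markers of its group, 255 TPM against 381 to 615 in the other 6. It also had the highest summed neutrophil markers of that group, 53.2 TPM. Its mitochondrially encoded share, 55.6%, was the highest and its size factor, 0.952, the lowest of the group. In bulk tissue, fewer cells of a type and less RNA per cell cannot be told apart. Sequencing depth is unknown, since TPM drops the read counts.

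The members differed widely in level. Means over all libraries were at least 100 TPM for 8 members, 10 to 100 TPM for 17, 1 to 10 TPM for 13 and under 1 TPM for 9. The citrate carrier Slc25a1 had the highest mean at 531 TPM, followed by Slc25a5 at 471, the acylcarnitine carrier Slc25a20 at 385 and the adenine nucleotide carrier Slc25a4 at 307 TPM. These 4 made up 55.0% of the summed TPM of the family. The family as a whole took 0.238% to 0.445% of the TPM of a library.

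The 8 members that did not pass the filter were Slc25a54, listed at 0 in all 62 libraries, Slc25a41, Slc25a21, Slc25a43, Slc25a2, Slc25a18, Slc25a13 and Slc25a53, and none of them exceeded 0.937 TPM in any library. Slc25a13 and Slc25a18 are the partners of the aspartate/glutamate carrier Slc25a12 and the glutamate carrier Slc25a22, respectively. In each of these pairs a single gene passed the filter.

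**Figure D1:**
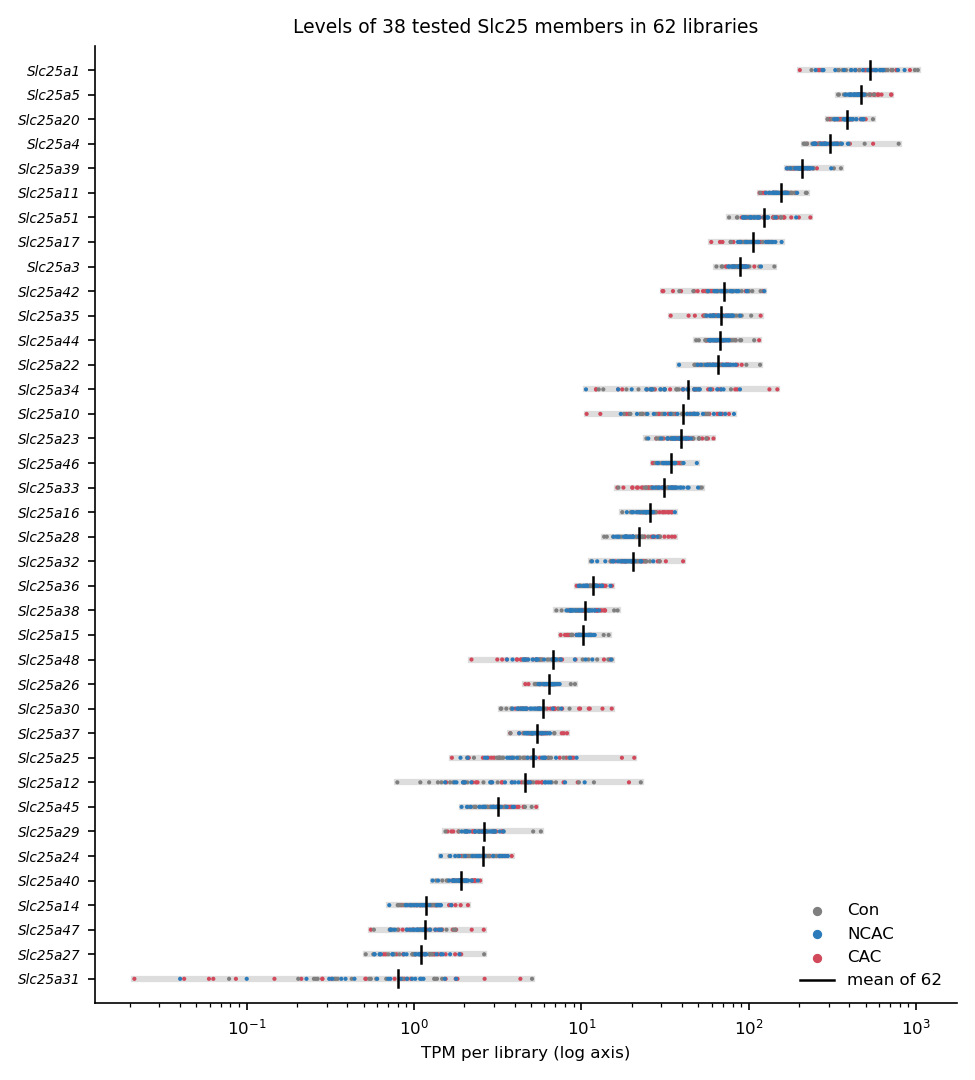
TPM of 38 tested members (rows, ordered by mean) in every library on a log axis, coloured by arm, with the mean over 62 libraries as a black tick. Slc25a1, Slc25a5, Slc25a20 and Slc25a4 lead at 307 to 531 TPM, and 1 library in which Slc25a31 was listed at 0 is not drawn.

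In CAC against Con at 8 weeks, 12 of the 39 tested members were higher and 1 was lower on the TPM scale. Over all genes 52.1% were called higher and 1.97% lower, so the family's share of higher calls, 30.8%, was below that of all genes. After rescaling 1 member was higher and 13 (33.3%) were lower, against 13.4% and 13.1% of all genes. The median difference of the members was 0.20 beside 0.28 for all genes on the TPM scale, and -0.10 beside -0.01 after rescaling. In CAC against NCAC, which uses the same CAC libraries, 11 members were higher and 2 lower on the TPM scale (all genes 37.3% and 1.98%), and 2 were higher and 11 lower after rescaling (all genes 12.7% and 11.9%). Without CAC library 2, 7 members were higher against NCAC on the TPM scale, and without NCAC library 1, 6 were lower after rescaling. On the TPM scale the members lower numbered 3 against Con without CAC library 5 and 2 without Con library 1, and 4 against NCAC without CAC library 5 or NCAC library 5 and 1 when 1 of 5 other libraries was left out (CAC 3, 4 and 6, NCAC 1 and 3). Without CAC library 3, 5 members were higher against Con after rescaling.

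**Figure D2:**
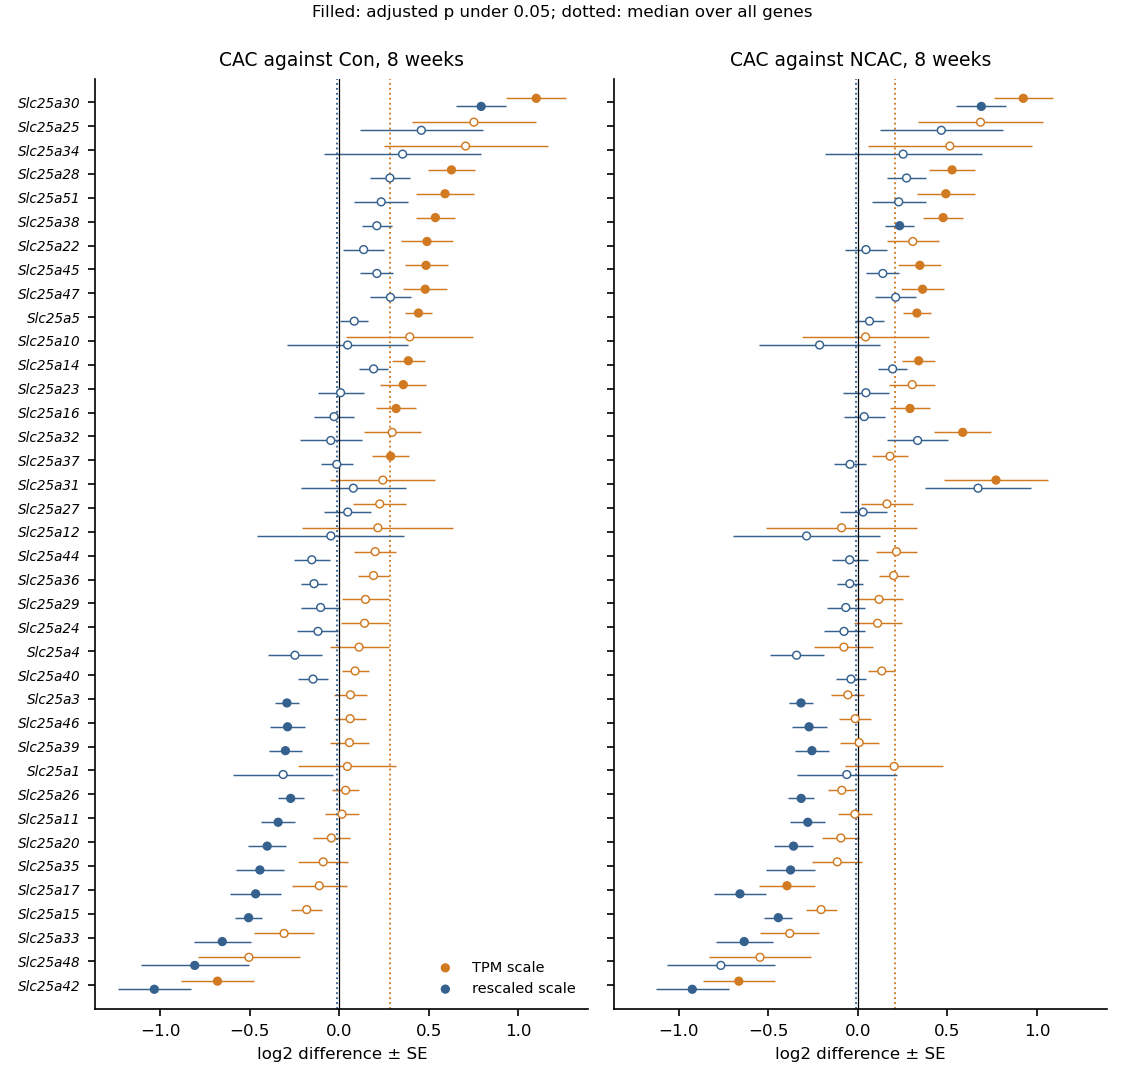
Log2 differences with SE of 38 tested members at 8 weeks, CAC against Con (left) and CAC against NCAC (right), on the TPM scale (orange) and after rescaling (blue); filled points passed an adjusted p of 0.05 and dotted lines give the median over all genes. Slc25a30 lies highest (1.10 against Con) and Slc25a42 lowest (-0.68), both filled on both scales in both panels.

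Slc25a30 is a member related to the uncoupling proteins and has been called kidney mitochondrial carrier protein. In CAC at 8 weeks its values were 15.2, 13.4, 4.24, 6.75, 11.1, 11.2 and 9.69 TPM. In Con they were 3.32, 4.63, 4.19, 3.30 and 4.41 TPM, and in NCAC 4.49, 4.95, 4.72, 4.63 and 4.14 TPM. The CAC libraries lay above all Con and NCAC libraries except library 3, which lay among them. The means were 10.2 ± 3.75 TPM (SD, n = 7) in CAC, 3.97 ± 0.623 TPM (SD, n = 5) in Con and 4.59 ± 0.301 TPM (SD, n = 5) in NCAC. The difference was 1.10 (SE 0.17, adjusted p = 6.95e-07) against Con and 0.92 (SE 0.17, adjusted p = 2.26e-05) against NCAC. After rescaling it was 0.79 (SE 0.14, adjusted p = 2.03e-05) and 0.69 (SE 0.14, adjusted p = 0.00019). It passed with each library left out in turn, on both scales, and ranged from 1.00 to 1.27 against Con. The macrophage marker sums of the same libraries were 255 TPM in library 3 and 381 to 615 TPM in the other 6. They were 128 to 170 TPM in Con and 100.1 to 186 TPM in NCAC. Library 3 also had the highest neutrophil marker sum of its group, 53.2 TPM, and the lowest size factor, 0.952. The part of these measures in the difference of Slc25a30 was not tested.

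Slc25a30 was not called before 6 weeks. At 2 weeks CAC values were 4.36, 5.50, 4.74, 5.62 and 4.03 TPM beside 3.82, 4.33, 4.35, 5.67 and 5.60 TPM in Con, and the groups overlapped throughout. At 6 weeks CAC values were 6.53, 6.25, 6.93, 6.95 and 7.23 TPM, all above the Con values of 3.83, 6.06, 4.20, 5.31 and 3.56 TPM, as in 15.2% of all genes. That difference was 0.49 (SE 0.18, adjusted p = 0.041) on the TPM scale and 0.31 (SE 0.15, adjusted p = 0.227) after rescaling, and it missed the threshold on the TPM scale when any 1 of 7 of the 10 libraries was left out (CAC 1, 3, 4 and 5, Con 1, 3 and 5). The change of the CAC minus Con difference from 2 to 8 weeks was 1.07 (SE 0.24, adjusted p = 0.00366), and 0.86 (SE 0.20, adjusted p = 0.00566) after rescaling. The other members of its group were at lower levels: Slc25a14, also known as brain mitochondrial carrier protein, was at 1.53 TPM in CAC and 0.908 TPM in Con at 8 weeks, a difference of 0.39 (SE 0.09, adjusted p = 0.000661) that missed the threshold after rescaling (0.19, adjusted p = 0.0665) unless CAC library 3 or 5 was left out. Slc25a27, first described in the nervous system, differed by 0.23 (SE 0.15, adjusted p = 0.189).

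**Figure D3:**
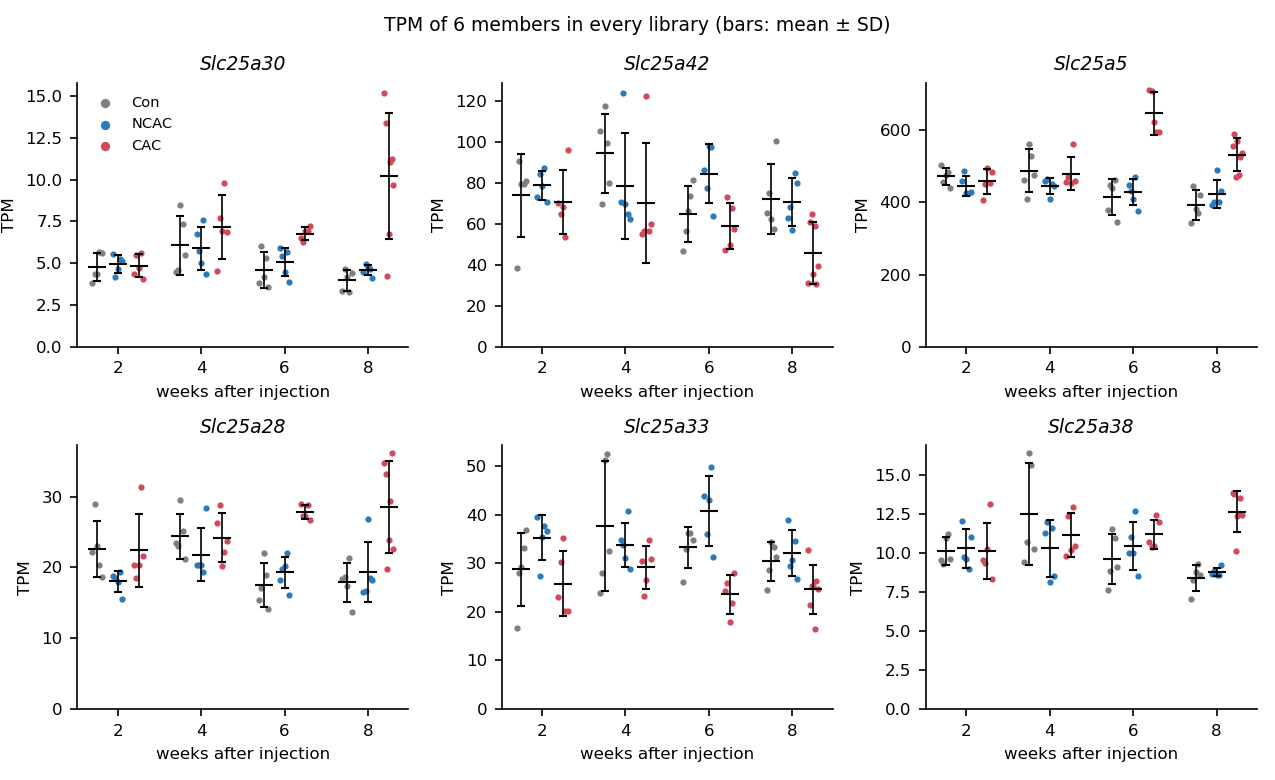
TPM of 6 members in every library, by weeks after injection and arm, with the mean and SD of each group in black; all vertical axes start at 0. At 8 weeks CAC libraries of Slc25a30 reach 15.2 TPM while no Con or NCAC library passes 4.95 TPM, Slc25a42 is lower in CAC with overlap, and at 6 weeks Slc25a5, Slc25a28 and Slc25a33 differ from both other arms.

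Slc25a42 brings coenzyme A into the matrix, where it is needed to activate fatty acids and pyruvate for oxidation. In CAC at 8 weeks its values were 30.9, 60.9, 64.7, 35.3, 58.96, 30.5 and 39.4 TPM. Con values were 65.5, 74.8, 62.4, 57.4 and 100.4 TPM and NCAC values 62.9, 68.4, 57.2, 84.9 and 79.9 TPM. Of the 7 CAC libraries, 4 lay below every library of the other arms and 3 lay within their range. The means were 45.8 ± 15.1 TPM (SD, n = 7) in CAC, 72.1 ± 17.04 TPM (SD, n = 5) in Con and 70.6 ± 11.6 TPM (SD, n = 5) in NCAC. The difference was -0.68 (SE 0.20, adjusted p = 0.00429) against Con and -0.66 (SE 0.20, adjusted p = 0.00776) against NCAC, and -1.03 (SE 0.20, adjusted p = 0.000134) and -0.92 (SE 0.20, adjusted p = 0.000633) after rescaling. It held with each library left out in turn on both scales, between -0.77 and -0.55 against Con on the TPM scale. The difference at 2 weeks was -0.03, at 4 weeks -0.48 and at 6 weeks -0.13, none of which passed (at 4 weeks it passed without CAC library 3), and the change from 2 to 8 weeks was -0.65 (SE 0.30, adjusted p = 0.128). Its spread was wide at the earlier times: Con values at 2 weeks ranged from 38.5 to 90.8 TPM with a median of 79.6, and CAC values at 4 weeks from 55.2 to 122 TPM with a median of 56.3.

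Among the other cofactor carriers, Slc25a51, which carries NAD, was higher at 152 ± 33.3 TPM (SD, n = 7) in CAC against 99.7 ± 16.9 TPM (SD, n = 5) in Con, by 0.59 (SE 0.16, adjusted p = 0.00223). It was also higher than in NCAC (0.49, adjusted p = 0.0138), but passed neither test after rescaling (0.23 and 0.23). Slc25a16, linked to coenzyme A transport, was higher by 0.32 (SE 0.11, adjusted p = 0.0151) and Slc25a32, which carries folate and FAD, was higher against NCAC (0.59, adjusted p = 0.00336), again on the TPM scale alone. The peroxisomal carrier Slc25a17 went the other way. Its CAC values were 88.4, 106, 67.3, 69.7, 106, 78.2 and 109 TPM beside 139, 103, 157, 107 and 86.2 TPM in NCAC and 78.2, 121, 98.2, 87.2 and 94.2 TPM in Con. These groups overlapped. Against NCAC it was lower, with a difference of -0.40 (SE 0.15, adjusted p = 0.037) and, after rescaling, -0.66 (SE 0.14, adjusted p = 0.000523). Against Con it was lower after rescaling but not on the TPM scale (-0.47, adjusted p = 0.0122, and -0.11, respectively, the former lost without Con library 2). On the TPM scale the call against NCAC ended when CAC library 3, 4 or 6, or NCAC library 1 or 3, was left out. The S-adenosylmethionine carrier Slc25a26 differed from Con by 0.04 (SE 0.08, adjusted p = 0.703) on the TPM scale and was lower after rescaling (-0.27, SE 0.07, adjusted p = 0.00388).

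The adenine nucleotide carriers export newly made ATP in exchange for ADP. Slc25a5, the widely expressed form, had its highest values in CAC at 6 weeks: 712, 709, 622, 596 and 595 TPM. Con values at 6 weeks were 380.2, 448, 440.1, 461 and 346 TPM and NCAC values 449, 430.3, 411, 471 and 377 TPM. All 5 CAC libraries lay above all libraries of both other arms. Over all genes CAC lay wholly above Con in 15.2% and wholly above NCAC in 6.41% at 6 weeks. The means were 647 ± 59.3 TPM (SD, n = 5) in CAC, 415 ± 49.6 TPM (SD, n = 5) in Con and 428 ± 36.03 TPM (SD, n = 5) in NCAC. Against Con the difference was 0.64 (SE 0.08, adjusted p = 1.48e-07), and 0.42 (SE 0.08, adjusted p = 0.00051) after rescaling. Against NCAC it was 0.59 (SE 0.08, adjusted p = 1.22e-06), and 0.50 (SE 0.08, adjusted p = 3.21e-05) after rescaling. Every one of these calls held with each library left out.

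At 8 weeks Slc25a5 remained higher in CAC on the TPM scale, at 557, 590.0, 469, 571, 477, 525 and 536 TPM, beside 342, 446, 380.3, 370.3 and 420.1 TPM in Con and 393, 402, 489, 401 and 431 TPM in NCAC. CAC lay above all Con libraries, as it did in 14.6% of all genes, and 1 NCAC library of 489 TPM lay within its range. The difference was 0.44 (SE 0.08, adjusted p = 9.8e-06) against Con and 0.33 (SE 0.08, adjusted p = 0.000814) against NCAC. After rescaling it was 0.08 (SE 0.08, adjusted p = 0.458) and 0.07 (SE 0.08, adjusted p = 0.578). The change of the CAC minus Con difference from 2 to 6 weeks was 0.69 (SE 0.12, adjusted p = 0.000995), and 0.58 (SE 0.12, adjusted p = 0.00357) after rescaling. From 2 to 8 weeks it was 0.49 (SE 0.11, adjusted p = 0.00475), and 0.25 (SE 0.12, adjusted p = 0.183) after rescaling. At 2 and 4 weeks the differences from Con were -0.04 and -0.02.

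Slc25a4, the form that predominates in heart and skeletal muscle, was at 281 ± 39.4 TPM (SD, n = 7) in CAC, 265 ± 74.6 TPM (SD, n = 5) in Con and 298 ± 58.5 TPM (SD, n = 5) in NCAC at 8 weeks. Its difference from Con was 0.11 (SE 0.16, adjusted p = 0.583). Its CAC values at 8 weeks were 261, 336, 326, 260.3, 223, 281 and 278 TPM and its Con values 218, 239.8, 246, 396 and 223 TPM, with Con library 4 the highest of either group. Slc25a31, a form of the male germ line, had a mean under 1 TPM over all libraries. It was called higher against NCAC (0.77, SE 0.29, adjusted p = 0.0316) but not after rescaling (0.67, SE 0.29, adjusted p = 0.0855), and 8 of the 12 libraries, when left out singly, ended the call.

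Slc25a3 imports the phosphate that ATP synthase needs. Its CAC values at 8 weeks were 88.4, 93.1, 80.5, 72.9, 73.8, 85.4 and 83.01 TPM, its Con values 68.9, 84.9, 75.95, 86.1 and 78.4 TPM and its NCAC values 75.5, 82.1, 95.3, 86.8 and 88.4 TPM, all overlapping. It differed from Con by 0.06 (SE 0.09, adjusted p = 0.578) on the TPM scale and was lower after rescaling, -0.29 (SE 0.07, adjusted p = 0.00104). At 6 weeks its CAC values were 94.2, 94.5, 94.5, 93.7 and 95.6 TPM, close together and all above the Con values of 69.6, 87.6, 83.8, 84.1 and 64.1 TPM, as in 15.2% of all genes. That difference was 0.29 (SE 0.10, adjusted p = 0.0331) and 0.06 (SE 0.07, adjusted p = 0.676) after rescaling, and on the TPM scale it missed the threshold when any 1 of 6 of the 10 libraries was left out (CAC 1, 2, 4 and 5, Con 1 and 5). The ATP-magnesium/phosphate carriers, which adjust the adenine nucleotide content of the matrix, are Slc25a23, Slc25a24, Slc25a25 and Slc25a41. Of the 3 tested, Slc25a23 was higher at 8 weeks on the TPM scale (0.36, SE 0.13, adjusted p = 0.0176, lost without CAC library 2) and not after rescaling (0.01). Slc25a24 differed by 0.14 (SE 0.13, adjusted p = 0.376). Slc25a25 was at 17.5, 8.13, 3.01, 8.97, 3.20, 6.36 and 7.42 TPM in CAC, 3.26, 2.07, 3.12, 6.59 and 4.20 TPM in Con and 3.84, 2.09, 2.66, 4.12 and 8.56 TPM in NCAC, with overlap and with CAC library 1 the highest. With that spread its difference of 0.75 (SE 0.35, adjusted p = 0.0622) did not pass, although leaving out 1 library (CAC 3, CAC 5 or Con 4) brought it under the threshold.

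No organic acid carrier was called at 8 weeks on the TPM scale. Slc25a1 was 263, 525, 919, 484, 764, 261 and 494 TPM in CAC, 514, 571, 573, 382 and 346 TPM in Con and 251, 371, 433, 519 and 615 TPM in NCAC at 8 weeks. The CAC libraries were spread over most of the range of both other arms and above it, and the difference from Con was 0.05 (SE 0.27, adjusted p = 0.901), and -0.31 (SE 0.28, adjusted p = 0.435) after rescaling. At 6 weeks its CAC values of 499, 435, 639.6, 494 and 499.9 TPM lay above the Con values of 342, 407, 364, 278 and 237 TPM, as in 15.2% of all genes. They overlapped the NCAC values of 329, 579, 279.9, 481 and 574 TPM, and the difference from Con of 0.67 (SE 0.30, adjusted p = 0.0902) did not pass. The dicarboxylate carrier Slc25a10 averaged 39.6 ± 14.96 TPM (SD, n = 7) in CAC at 8 weeks against 28.4 ± 7.26 TPM (SD, n = 5) in Con, a difference of 0.39 (SE 0.36, adjusted p = 0.352). The oxoglutarate carrier Slc25a11, part of the malate-aspartate shuttle, averaged 137 and 136 TPM, a difference of 0.02, and was lower after rescaling (-0.34, SE 0.10, adjusted p = 0.00658).

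Slc25a20 carries acylcarnitines into the matrix, the entry step for long-chain fatty acids. Its CAC values at 8 weeks were 306, 359, 297, 349.8, 380.2, 305 and 357 TPM, beside 326, 364, 314, 325 and 406 TPM in Con and 398, 334, 402, 338 and 324 TPM in NCAC. The 3 arms overlapped throughout. On the TPM scale the difference was -0.04 (SE 0.10, adjusted p = 0.738) against Con and -0.09 (SE 0.10, adjusted p = 0.487) against NCAC. After rescaling Slc25a20 was lower in both, at -0.40 (SE 0.11, adjusted p = 0.00367) and -0.36 (SE 0.11, adjusted p = 0.0106), the latter lost without NCAC library 1.

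Of the amino acid and choline carriers, Slc25a38, which carries glycine for haem synthesis, had groups that did not overlap at 8 weeks. Its CAC values were 13.9, 13.8, 10.1, 12.4, 12.5, 13.5 and 12.5 TPM, its Con values 7.09, 8.27, 8.82, 9.30 and 8.63 TPM and its NCAC values 8.64, 8.83, 8.63, 8.62 and 9.24 TPM. Every CAC library was above every Con and NCAC library. Over all genes CAC lay wholly above Con in 14.6% and wholly above NCAC in 6.82% at 8 weeks. Slc25a5, Slc25a22 and Slc25a45 also lay wholly above Con. The difference was 0.54 (SE 0.11, adjusted p = 8.54e-05) against Con and 0.48 (SE 0.11, adjusted p = 0.000644) against NCAC. After rescaling it was 0.21 (SE 0.08, adjusted p = 0.0517), which missed the threshold unless CAC library 3 or 5 was left out, and 0.23 (SE 0.08, adjusted p = 0.0315), a call that ended when CAC library 1, 4 or 6 or NCAC library 3 or 4 was left out. The change from 2 to 8 weeks was 0.55 (SE 0.16, adjusted p = 0.0233), and 0.33 after rescaling (adjusted p = 0.0812).

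Slc25a44 brings branched-chain amino acids into the matrix and is known for fuelling heat production in brown fat. At 8 weeks its values were 55.9, 69.4, 61.5, 67.9, 115, 59.3 and 69.3 TPM in CAC, 54.9, 69.7, 63.6, 58.2 and 55.7 TPM in Con and 58.7, 62.02, 57.8, 58.7 and 60.7 TPM in NCAC. CAC library 5 was far above the rest, and the other libraries overlapped. The difference from Con was 0.20 (SE 0.12, adjusted p = 0.136). At 2 weeks it was at 62.8, 55.7, 69.7, 55.4 and 72.8 TPM in CAC and 90.1, 83.6, 72.2, 79.3 and 81.2 TPM in Con. That difference was -0.36 (SE 0.12, adjusted p = 0.0849) on the TPM scale, passing without CAC library 5, and -0.48 (SE 0.11, adjusted p = 0.00916) after rescaling, a call lost without CAC library 2. The change of the difference from 2 to 8 weeks was 0.56 (SE 0.17, adjusted p = 0.0269), and 0.33 after rescaling (adjusted p = 0.165). The ornithine carrier Slc25a15 was at 7.52, 9.59, 8.76, 8.34, 10.1, 8.25 and 8.71 TPM in CAC and 8.75, 11.1, 10.7, 9.87 and 9.87 TPM in Con at 8 weeks, with overlapping ranges. It differed by -0.18 (SE 0.09, adjusted p = 0.0697) on the TPM scale, passing without CAC library 5 or Con library 1, and was lower after rescaling, at -0.51 (SE 0.08, adjusted p = 1.75e-06) against Con and -0.44 (SE 0.08, adjusted p = 2.05e-05) against NCAC, calls that held with each library left out. The basic amino acid carrier Slc25a29 and the choline carrier Slc25a48 differed from Con at 8 weeks by 0.15 and -0.50, neither called on the TPM scale. After rescaling Slc25a48 was lower (-0.81, adjusted p = 0.0396), and 8 of the 12 libraries, when left out singly, ended that call.

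The mitoferrins Slc25a28 and Slc25a37 bring iron into the matrix for haem and iron-sulphur clusters. Slc25a28 at 6 weeks was 28.99, 27.3, 27.3, 28.8 and 26.7 TPM in CAC, 15.5, 17.03, 21.97, 18.9 and 14.2 TPM in Con and 18.2, 19.7, 20.2, 22.1 and 16.1 TPM in NCAC. All CAC libraries lay above all others, where 15.2% of all genes lay wholly above Con and 6.41% wholly above NCAC. The difference was 0.65 (SE 0.14, adjusted p = 0.000794) against Con and 0.51 (SE 0.14, adjusted p = 0.0144) against NCAC, and 0.44 (SE 0.12, adjusted p = 0.0128) and 0.42 (SE 0.12, adjusted p = 0.0143) after rescaling. The rescaled call against Con was lost without Con library 5, and the TPM call against NCAC without NCAC library 5. At 8 weeks CAC ranged from 19.7 to 36.1 TPM with a median of 29.4, beside 18.4, 18.6, 17.4, 21.3 and 13.7 TPM in Con. The CAC libraries overlapped Con in 1 library, and the difference was 0.63 (SE 0.13, adjusted p = 0.000107) and 0.28 (SE 0.11, adjusted p = 0.0517) after rescaling, which passed when any 1 of 6 of the 12 libraries was left out (CAC 3, 4, 5 and 7, Con 1 and 4). Slc25a37, the form of red cell precursors, was higher at 8 weeks on the TPM scale (0.29, SE 0.10, adjusted p = 0.0159, lost without CAC library 5 or Con library 1), while the rescaled difference was -0.01.

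The pyrimidine nucleotide carriers supply the precursors of mitochondrial DNA and RNA. Slc25a33 at 6 weeks was 24.2, 26.02, 17.8, 21.8 and 28.1 TPM in CAC, 26.2, 32.9, 36.1, 36.1 and 34.8 TPM in Con and 43.8, 36.01, 43.1, 49.8 and 31.2 TPM in NCAC. CAC lay below all NCAC libraries, as it did in 1.69% of all genes, and overlapped Con in its lowest library. The difference was -0.76 (SE 0.18, adjusted p = 0.00351) against NCAC and -0.48 (SE 0.18, adjusted p = 0.0443) against Con. After rescaling it was -0.85 (SE 0.17, adjusted p = 0.000469) and -0.70 (SE 0.17, adjusted p = 0.00484). On the TPM scale the call against Con was lost when any 1 of 7 of the 10 libraries was left out (CAC 1, 3 and 4, Con 2, 3, 4 and 5), and the other 3 calls held with each library left out. At 8 weeks its CAC values ranged from 16.4 to 32.7 TPM with a median of 25.2, beside 24.4, 28.6, 34.3, 33.3 and 31.2 TPM in Con, with overlap. It differed by -0.31 (SE 0.17, adjusted p = 0.11) and was lower after rescaling (-0.65, SE 0.16, adjusted p = 0.0017). The other pyrimidine nucleotide carrier, Slc25a36, differed from Con at 8 weeks by 0.19 (SE 0.08, adjusted p = 0.0502), which passed without CAC library 3 or 4 or Con library 2.

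The glutathione carrier Slc25a39 averaged 193 ± 24.2 TPM (SD, n = 7) in CAC at 8 weeks against 185 ± 10.4 TPM (SD, n = 5) in Con, and its relative Slc25a40 2.05 and 1.86 TPM, with differences of 0.06 and 0.09. Slc25a39 was lower after rescaling (-0.30, SE 0.09, adjusted p = 0.0131). Slc25a46, an outer membrane member with a part in mitochondrial fission, differed by 0.06 and was lower after rescaling (-0.29, SE 0.10, adjusted p = 0.0227, lost without Con library 1 or 2). Of the 4 tested members to which no substrate was assigned here, Slc25a45 and Slc25a47 were higher than Con on the TPM scale. The differences were 0.48 (SE 0.12, adjusted p = 0.000809) and 0.48 (SE 0.12, adjusted p = 0.00105). After rescaling they missed the threshold, which Slc25a45 passed without Con library 5 and Slc25a47 without CAC library 3, CAC library 5 or Con library 4. Slc25a34 differed by 0.71 (SE 0.46, adjusted p = 0.188), which passed without CAC library 3. Its close relative Slc25a35 differed by -0.09 (SE 0.14, adjusted p = 0.602), which passed without CAC library 5, and was lower after rescaling (-0.44, adjusted p = 0.012), a call lost without CAC library 1.

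Few members were called before 6 weeks. At 2 weeks 1 of 39 members was higher and 0 lower in CAC against Con (all genes 4.58% and 0.0477%), and 1 was higher and 1 lower after rescaling (all genes 4.08% and 0.715%). On the TPM scale 3 were higher and 1 lower without CAC library 5. At 4 weeks 0 were higher and 2 lower (all genes 0.819% and 3.03%), and 0 and 1 after rescaling (all genes 3.23% and 2.28%). The 2 were Slc25a26 (-0.27, SE 0.08, adjusted p = 0.0462) and Slc25a29 (-0.48, SE 0.14, adjusted p = 0.0447), and neither was called without Con library 3 or without Con library 4, which stood apart, or without CAC library 2 or 4. The count was 8 without Con library 2, 4 without Con library 1 and 1 without CAC library 1. Against Con, 5, 13, 11 and 16 members had an unadjusted p under 0.05 by limma on the TPM scale at 2, 4, 6 and 8 weeks. These were 12.8%, 33.3%, 28.2% and 41% of the members, beside 17.1%, 19.9%, 37.2% and 59.4% of all genes. The 4-week values include Con libraries 3 and 4. Against NCAC, 0 members were called at 2 or at 4 weeks on either scale. Over all genes 0.0397% and 0.588% were higher on the TPM scale, and 0.0318% and 0.85% after rescaling. At 4 weeks 0.111% were lower after rescaling. In TPM, CAC lay wholly below Con for Slc25a35 at 2 weeks (0.596% of all genes) and for Slc25a26 and Slc25a35 at 4 weeks (1.01%). It lay wholly below NCAC for Slc25a35 at 2 weeks (0.238%) and for Slc25a3 at 4 weeks (0.183%). For Slc25a46 it lay wholly above NCAC at 2 weeks (3.53%).

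At 6 weeks 5 members were higher and 1 lower against Con (all genes 20.7% and 0.978%), and 2 were higher and 3 lower after rescaling (all genes 5.18% and 3.16%). The 5 were Slc25a28, Slc25a5, Slc25a30, Slc25a16 and Slc25a3, and the count was 2 when CAC library 4 or Con library 5 was left out, and 3 for CAC library 1 or 5 or Con library 1. Against NCAC, Slc25a5 and Slc25a28 were higher and Slc25a33 lower, 2 and 1 on either scale (all genes 5.82% and 1.95% on the TPM scale, 5.6% and 5.07% after rescaling). The CAC minus Con difference rose from 2 to 8 weeks in 6 members and fell in 0 (all genes 10.2% and 1.42%). The 6 were Slc25a30, Slc25a5, Slc25a28, Slc25a38, Slc25a47 and Slc25a44, and the count was 3 without CAC library 2 at 2 weeks or Con library 1 at 8 weeks. After rescaling it rose in 1, Slc25a30, and fell in 2, Slc25a15 (-0.43, SE 0.11, adjusted p = 0.0142) and Slc25a3 (-0.33, SE 0.10, adjusted p = 0.0329), beside 3.5% and 3.35% of all genes. From 2 to 8 weeks within Con, limma called 0 members on either scale (all genes 0.0318% lower on the TPM scale, and 0.175% higher and 0.0397% lower after rescaling), while 10 (25.6%) had an unadjusted p under 0.05 on the TPM scale, beside 20.3% of all genes.

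Melanoma cells described as non-cachectic gave no called member. In NCAC against Con limma called 0 of 39 at each of the 4 weeks on either scale, where at most 1 gene of all tested was called (0.00795% at 4 weeks). On the TPM scale 2, 5, 2 and 0 members had an unadjusted p under 0.05 at 2, 4, 6 and 8 weeks (5.13%, 12.8%, 5.13% and 0%), beside 7.5%, 17.5%, 8.42% and 3.7% of all genes. At 8 weeks Slc25a30 differed between NCAC and Con by 0.18 (SE 0.18, adjusted p = 0.98) and Slc25a42 by -0.02 (SE 0.22, adjusted p = 1).

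Slc25a12, the calcium-stimulated aspartate/glutamate carrier of muscle and brain, was the single member called higher at 2 weeks. Its CAC values at 2 weeks were 19.2, 9.51, 5.55, 7.82 and 2.40 TPM, its Con values 0.794, 2.08, 1.46, 3.16 and 1.23 TPM and its NCAC values 2.93, 2.01, 4.92, 7.99 and 6.13 TPM. The lowest CAC library lay within the Con range, and library 1 was far above the others. The difference from Con was 1.67 (SE 0.46, adjusted p = 0.0256), and 1.59 (SE 0.44, adjusted p = 0.0297) after rescaling. The call ended when CAC library 1, 2 or 4, or Con library 1 or 5, was left out. The summed TPM of 17 skeletal muscle markers was 1561 to 17217 in CAC and 102 to 2847 in Con at 2 weeks, and its part in this difference was not tested.

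Over the 62 libraries the log2 values of Slc25a12 followed those of the summed skeletal muscle markers, with Pearson's r = 0.94 and Spearman's rho = 0.98 (2-sided permutation test, 100000 resamples, p = 0.00001 for each, the smallest they can give; adjusted p = 0.000195 and 0.00013 over the 39 members computed). Without the 2 libraries farthest from the median of the markers r was 0.97, and on deviations from the group means it was 0.93. Slc25a4 had r = 0.76 and rho = 0.80 (permutation p = 0.00001 for each, adjusted p = 0.000195 and 0.00013), 0.81 without those 2 libraries and 0.78 on deviations. Slc25a27, Slc25a24 and Slc25a29 had r of 0.50, 0.46 and 0.43, and by Pearson's r these 5 of the 39 passed at an adjusted p under 0.05. By Spearman's rho Slc25a10 (rho = 0.41, adjusted p = 0.0067 by the permutation test) and Slc25a3 (rho = 0.33, adjusted p = 0.0464) passed as well, which makes 7. An r at least as far from 0 as the smallest of the 5 was found for 12.8% of the members and 7.12% of the 12564 genes other than the markers, and for the 7 by rho the shares were 17.9% and 13.5%. Both measures come from the same libraries and share their fixed total. Con library 4 at 4 weeks had the highest values of all 3: 23521 TPM of muscle markers, 22.6 TPM of Slc25a12 and 787 TPM of Slc25a4. At 8 weeks the highest Con and NCAC libraries of Slc25a12, 9.67 and 10.5 TPM, had 9189 and 9301 TPM of muscle markers. Slc25a22, the glutamate carrier, was higher in CAC than in Con at 8 weeks on the TPM scale (0.49, SE 0.14, adjusted p = 0.00389) and not after rescaling (0.14).

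**Figure D4:**
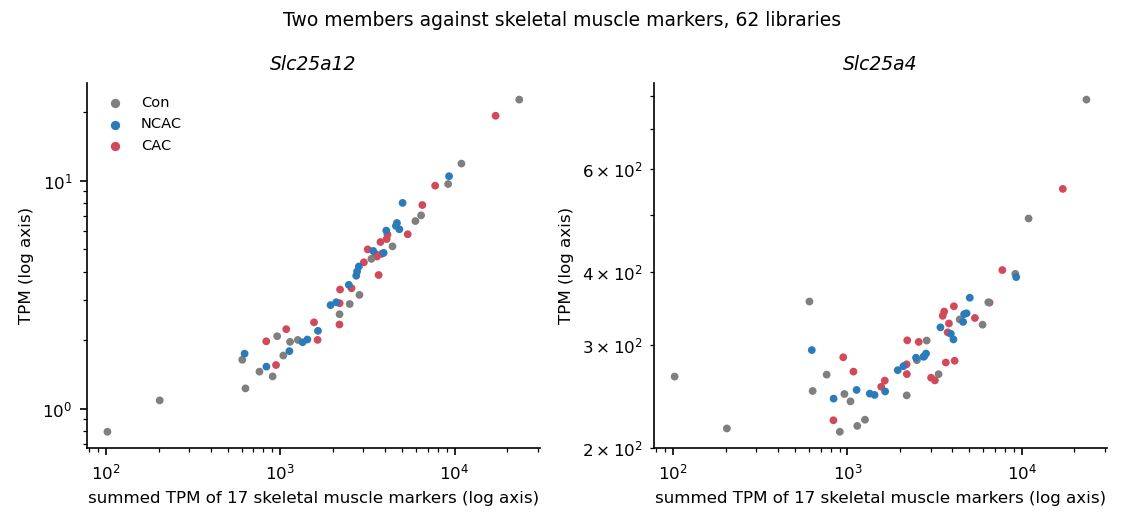
TPM of Slc25a12 (left) and Slc25a4 (right) against the summed TPM of 17 skeletal muscle markers, log axes, 1 point for each of 62 libraries coloured by arm. Slc25a12 rises along a narrow band (r = 0.94) in all 3 arms, and Slc25a4 rises with it from about the middle of the range (r = 0.76).

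The carrier family also holds genes with other symbols. Ucp1, the uncoupling protein of brown fat, averaged 3061 against 5062 TPM in CAC and Con at 8 weeks, a difference of -0.82 (SE 0.25, adjusted p = 0.00571), and -1.18 (adjusted p = 0.000178) after rescaling. Ucp2 averaged 54.6 against 12.1 TPM, a difference of 1.94 (SE 0.39, adjusted p = 6.49e-05), and 1.60 (adjusted p = 0.000813) after rescaling. Ucp3 differed by -0.25 (SE 0.20, adjusted p = 0.27) and was lower after rescaling, -0.61 (adjusted p = 0.0114). Of the 5 genes Ucp1, Ucp2, Ucp3, Mtch1 and Mtch2, 2 were higher and 1 lower on the TPM scale, and 1 and 3 after rescaling. Ucp2 is abundant in immune cells, and the macrophage markers rose in the same comparison, 10 of 11 tested on the TPM scale and 9 after rescaling. Neutrophil markers rose in 4 of 4 tested on both scales. Beside these counts, 52.1% of all genes were called higher and 1.97% lower on the TPM scale, and 13.4% and 13.1% after rescaling. The part of these cells in the differences of Slc25 members was not tested.

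Other mitochondrial genes in CAC against Con at 8 weeks were also split by the scale. For all counts below, 52.1% of all genes were called higher and 1.97% lower on the TPM scale. After rescaling the shares were 13.4% and 13.1%. Of 27 genes of the respiratory chain, ATP synthase and citrate synthase, 7 were higher and 0 lower on the TPM scale, and 0 were higher and 16 lower after rescaling. Of 12 tested genes for the import of carriers into the inner membrane, 1 was higher (Tomm70a, the receptor that binds carrier precursors, 0.29, SE 0.09, adjusted p = 0.00374) and 0 lower, and after rescaling 0 and 2. Of the 7 pyruvate carrier and sideroflexin genes 2 were higher and 0 lower, and after rescaling 0 and 3, and of the 3 outer membrane channels of the Vdac group 2 and 0, and 0 and 1. Of 7 regulators of mitochondrial biogenesis, Nrf1 was higher (0.28, SE 0.08, adjusted p = 0.00514) and Ppara, a receptor that drives fatty acid oxidation genes, was lower (-0.78, SE 0.30, adjusted p = 0.0251) on the TPM scale. After rescaling Ppara and Tfam, a factor that maintains mitochondrial DNA, were lower, with differences of -1.13 (adjusted p = 0.00593) and -0.45 (adjusted p = 2.71e-06). Of 7 brown adipocyte markers 1 was higher and 1, Ucp1, lower on the TPM scale, and 0 and 3 after rescaling. Of 17 skeletal muscle markers 0 were called by limma at 8 weeks on either scale, with 0 at an unadjusted p under 0.05 on the TPM scale. Mammary and skin epithelial markers fell in 5 of 8 on both scales.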

How the data were processed

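RNA of 62 brown adipose samples was extracted with Trizol and sequenced from poly(A) libraries that keep strand, per the labels' protocols. The authors deposited 1 table of TPM per gene symbol, made on mm10 per the submitters' processing notes; the aligner, the counter and their versions are not given in the sources used here. TPM keeps no read counts, so no interval for counting error is given.

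TPM was transformed as log2(TPM + 1). The filter asked for 1 TPM or more in 5 or more libraries and left 12581 of 47643 symbols. A model of 12 group means over all 62 libraries was fitted with limma 3.58.1 (R 4.3.3, trended empirical Bayes, 2-sided), giving 15 contrasts, each with Benjamini-Hochberg adjustment over the genes tested and calls at an adjusted p under 0.05. The fit was checked on simulated data. The same fit was made after median-of-ratios rescaling. Correlations with muscle markers used scipy 1.17.1 (Python 3.11.15).

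All 47 members were found by symbol in GENCODE release M21, and 36 had a RefSeq promoter. Counts of members cover all 39 tested, of which 1 is not reported here by itself. Of 165 listed genes, 2 had no row in the table. Samples are labelled as separate libraries; nothing further ties them to animals, so p-values measure the spread between these samples. Members described most fully, with values in every sample for the weeks that a result turns on, were those called in the same direction in CAC against Con and NCAC at 8 weeks on both scales, the 3 with the highest mean, and Slc25a3, Slc25a4, Slc25a25 and Slc25a44; Slc25a12, Slc25a15, Slc25a17, Slc25a28, Slc25a33 and Slc25a38 were added after their values were seen. The members and all gene lists were chosen with earlier results of these data known. Alternatives were another pseudocount (0.1), no filter, a stricter filter (5 TPM), rescaling, removal of mitochondrially encoded genes, quantile normalization, a fit on the compared groups alone, a replicate block, and leaving out libraries; rescaling with libraries left out was added after seeing the data.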

Additional observations from a re-analysis of the deposited data

Results flagged for a closer look

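Of 180 combinations of a named member and a group, 18 had 1 library far from the others by Dixon's criterion at 95%. Chance gives about 1 in 20 for independent, normally distributed values. The members share their libraries, so the 18 are not independent and cannot be set directly against that rate. Library 1 of Con at 2 weeks stood apart for 3 members: Slc25a42 was at 38.5 TPM, below the other libraries (79.4 to 90.8 TPM), Slc25a20 was at 296 TPM, also below, and Slc25a1 at 1025 TPM, above. Library 2 of NCAC at 4 weeks stood apart for 2 of the same members, with Slc25a42 at 124 TPM, above the others, and Slc25a1 at 276 TPM, below. Slc25a42 was also high in library 3 of CAC at 4 weeks, at 122 TPM beside 55.2 to 59.9 TPM. The reciprocal placing of Slc25a1 and Slc25a42 in these 2 groups was not tested.

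Among the nucleotide and phosphate carriers, Slc25a5 was high in library 4 of CAC at 4 weeks (561 TPM), Slc25a4 in library 4 of Con at 8 weeks (396 TPM), and Slc25a25 in library 2 of CAC at 4 weeks (20.7 TPM) and library 1 of CAC at 8 weeks (17.5 TPM). The same Con library 4 at 8 weeks was high for Slc25a12 (9.67 TPM) and had the most muscle marker RNA of its group. Slc25a28 was high in library 4 of CAC at 2 weeks (31.4 TPM), library 5 of NCAC at 4 weeks (28.4 TPM) and library 3 of NCAC at 8 weeks (26.8 TPM). Slc25a44 was high in library 5 of CAC at 8 weeks (115 TPM), Slc25a20 in library 4 of NCAC at 6 weeks (470.2 TPM) and Slc25a17 in library 4 of Con at 6 weeks (137 TPM). Slc25a38 was low in library 3 of CAC at 8 weeks (10.1 TPM). That library had the lowest macrophage marker sum, the highest neutrophil marker sum and the lowest size factor of its group.

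The CAC minus Con difference of Slc25a30 changed between 2 and 8 weeks by 1.07 on the log2 scale, by limma's test of the interaction.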

How the results depend on the processing

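Counts of members called higher or lower were recomputed under each alternative. With a pseudocount of 0.1, 1 was lower against Con at 4 weeks and 10 were higher against NCAC at 8 weeks. With no filter, 0 were lower against Con at 4 and at 6 weeks and 1 against NCAC at 8 weeks. Members higher then numbered 4 against Con at 6 weeks and 9 against NCAC at 8 weeks. The stricter filter of 5 TPM gave 7 higher against Con at 6 weeks and 10 at 8 weeks. Against NCAC at 8 weeks it gave 8 higher and 3 lower. The compared groups alone gave 11 higher against Con at 8 weeks. After median-of-ratios rescaling, removal of mitochondrially encoded genes and quantile normalization, respectively, members lower against Con numbered 1, 1 and 1 at 2 weeks, 1, 0 and 1 at 4 weeks, 3, 5 and 3 at 6 weeks and 13, 13 and 13 at 8 weeks, and members higher numbered 2, 2 and 2 at 6 weeks and 1, 1 and 1 at 8 weeks. Against NCAC at 8 weeks they gave 2, 2 and 1 higher and 11, 12 and 11 lower. Removal gave 3 lower against NCAC at 6 weeks, and rescaling gave 3 members with a changed CAC minus Con difference. With the compared groups alone, 2 were higher and 2 lower against Con at 2 weeks, 0 were lower at 4 weeks, 6 were higher and 1 lower against NCAC at 8 weeks, and 7 changed in Con from 2 to 8 weeks. Without Con libraries 3 and 4 at 4 weeks, 0 were lower there. With each library left out, counts higher and lower against Con ranged from 0 to 3 and 0 to 1 at 2 weeks, 2 to 6 and 0 to 1 at 6 weeks, and 11 to 15 and 1 to 3 at 8 weeks, with 0 to 8 lower at 4 weeks. Against NCAC they ranged from 1 to 2 higher at 6 weeks, and 7 to 14 higher and 1 to 4 lower at 8 weeks. Those lower in NCAC against Con at 4 weeks ranged from 0 to 1 (1 without Con library 5), the changed differences from 3 to 8 (3 without CAC library 2 at 2 weeks or Con library 1 at 8 weeks), and the changes within Con from 0 to 2 (2 without library 2 at 8 weeks). The difference of Slc25a3 from Con reversed to -0.0098 at 6 weeks without mitochondrially encoded genes, and at 8 weeks to -0.29, -0.34 and -0.29 after rescaling, removal and quantile normalization. A reversal is counted here as a change of sign with a call in either fit or in both. Of all 39 tested members at 8 weeks, 7, 8 and 7 reversed against Con under these 3 alternatives, and 1, 1 and 1 against NCAC. Over a narrower set of 39 results for named members in several comparisons, 599 values under alternatives kept their call or stayed uncalled. Of the rest, 38 gained a call, 31 lost one and 4, all of Slc25a3, reversed. Direction was not compared for values uncalled in both fits. Some of the 599 therefore changed sign, the difference of Slc25a1 from Con at 8 weeks after rescaling among them. The cause was not tested.

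Replicate numbers are shared between groups, and these values cannot tell whether they pair the libraries. Deviations of same-numbered libraries correlated from -0.389 to 0.484 over the 12 comparisons, and each comparison had pairs at or under 0.1. At 4 weeks, 3 of 5 such pairs were over 0.1 in CAC against Con, and 3 of 5 in CAC against NCAC. With the number as a replicate block, 11 members were higher and 1 lower against Con at 8 weeks, and 10 and 1 against NCAC. That block also gave 1 lower against Con at 4 weeks and 6 higher at 6 weeks. Depth is unknown, so values near 0 carry no stated precision.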
